A study of Homo sapiens with 14 samples.

Results

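Genes for 10 secreted proteins that act on blood vessels or are known to respond to low oxygen were followed in 2 human cancer cell lines. They are the vascular endothelial growth factors VEGFA, VEGFB and VEGFC, placental growth factor (PGF), platelet-derived growth factor B (PDGFB), the peptide hormones adrenomedullin (ADM) and apelin (APLN), angiopoietin-like 4 (ANGPTL4) and the stanniocalcins STC1 and STC2. They were chosen by name, and all 10 were found among the 23106 gene symbols of the count files. PC3 comes from a prostate carcinoma and was cultured in a mixture of DMEM and Hams F12. HCT116 comes from a colorectal carcinoma and was cultured in McCoy's 5a. Each line, unmodified, was kept for 16 h in normoxia (21% O2) or in hypoxia (0.5% O2), with 4 libraries per condition in PC3 and 3 in HCT116, and polyadenylated RNA was sequenced. Line, medium and culture cannot be told apart, and each line stands for 1 tumour.

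Total gene counts were 98021966 to 123935458 in normoxic PC3 libraries, 71228454 to 96159803 in hypoxic PC3 libraries, 136931675 to 147934177 in normoxic HCT116 libraries and 133067391 to 150630928 in hypoxic HCT116 libraries. Levels are given as CPM, each count as a share of its library's total (per 1e6 reads) after scaling of all 14 libraries together by TMM, which takes most genes as unchanged. The labels were checked on 10 other genes known to rise in low oxygen, among them NDRG1, CA9, BNIP3 and LDHA. In both lines, every hypoxic library lay above every normoxic library for all 10, as it did for 9.62% of genes in PC3 and 20.3% in HCT116. These 10 genes were chosen with earlier results of these data known. Replicate 1 of PC3 lay far from the rest of its line on a second principal component that held 32.0% of the variance. Its normoxic library scored 19.7 and its hypoxic library 36.8, while the other 6 lay between -20.9 and 4.4. Tests and levels were repeated without both of its libraries. On the first component, which held 42.3% of the variance, hypoxia replicate 4 of PC3 also stood apart. It scored 43.5, while the other hypoxic PC3 libraries scored 2.9 to 17.8. The study's methods call the libraries of a condition biological replicates, but nothing in the labels says what separates them, so p-values measure the spread between these libraries.

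These factors carry signals from tissue that lacks oxygen to the vessels that supply it. VEGFA acts on endothelial cells mainly through the receptor KDR, PGF and VEGFB bind FLT1, VEGFC drives the growth of lymphatic vessels through FLT4, and PDGFB draws pericytes to new vessels through PDGFRB. Adrenomedullin signals through CALCRL joined to a RAMP protein and widens vessels, apelin signals through APLNR, ANGPTL4 inhibits lipoprotein lipase, and the stanniocalcins are glycoprotein hormones first known for their part in calcium and phosphate balance. Many genes of this kind are switched on by the hypoxia-inducible factors (HIF), which bind DNA at short sites with the core ACGTG or GCGTG.

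ANGPTL4 and ADM were the members with the largest rises that were called in both lines. VEGFA, VEGFB and PDGFB rose in both as well, by less, and STC2 rose 3.13-fold in HCT116. VEGFC, STC1 and APLN were factors of PC3: VEGFC and STC1 had almost no counts in HCT116, and APLN was 29.7-fold higher in PC3 in normoxia. PGF and ADM were the only members with a higher level in HCT116 than in PC3, in either condition.

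The promoters of members that passed the test with a log2 difference of at least 1 in a line are shown because they are the DNA next to the genes that moved most. No promoter sequence is given here for VEGFA and STC1. The other 4 are ADM (chr11:10304823-10305072, plus strand), ANGPTL4 (chr19:8363905-8364154, plus strand), APLN (chrX:129654957-129655206, minus strand) and STC2 (chr5:173328415-173328664, minus strand), each as the 250 bases before the start of transcription in RefSeq on GRCh38.p14, read 5′ to 3′ along the gene. Capitals mark ACGTG or GCGTG on either strand (CACGT and CACGC are their reverse complements) and TATAAA on the sense strand.
ADM: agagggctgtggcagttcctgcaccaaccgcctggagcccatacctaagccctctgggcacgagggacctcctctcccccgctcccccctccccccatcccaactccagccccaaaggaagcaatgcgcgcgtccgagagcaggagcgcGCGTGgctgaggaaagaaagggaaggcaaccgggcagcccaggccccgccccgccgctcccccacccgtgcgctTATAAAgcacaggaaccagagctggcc
ANGPTL4: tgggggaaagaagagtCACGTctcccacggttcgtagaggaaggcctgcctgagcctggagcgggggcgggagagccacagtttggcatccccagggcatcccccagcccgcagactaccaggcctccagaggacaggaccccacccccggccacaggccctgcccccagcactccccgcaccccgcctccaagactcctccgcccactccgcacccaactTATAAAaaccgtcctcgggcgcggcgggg
APLN: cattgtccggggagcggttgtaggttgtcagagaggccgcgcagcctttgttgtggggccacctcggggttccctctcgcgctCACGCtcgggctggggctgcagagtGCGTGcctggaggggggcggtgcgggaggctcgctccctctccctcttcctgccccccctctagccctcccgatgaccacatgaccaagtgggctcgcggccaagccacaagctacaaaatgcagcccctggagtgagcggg
STC2: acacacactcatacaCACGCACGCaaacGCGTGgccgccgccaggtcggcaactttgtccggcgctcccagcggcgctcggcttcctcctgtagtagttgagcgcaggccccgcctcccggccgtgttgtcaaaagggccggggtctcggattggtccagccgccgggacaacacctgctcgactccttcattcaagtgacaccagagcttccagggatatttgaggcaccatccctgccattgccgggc
ADM held 1 GCGTG, ANGPTL4 held 1 ACGTG on the antisense strand, APLN held 2 matches and STC2 held 3, of which 2 shared a base. ADM and ANGPTL4 also held TATAAA, which began 27 and 29 bases before the start. VEGFB and VEGFC held 1 match of the core each, and PGF held 0 at one start and 1 at the other. The core was found in 43.2% of the 35116 RefSeq promoters of this length and TATAAA in 6.8%, and a match describes the sequence and does not mark a site of binding.

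In PC3, 8 of the 10 members were called higher in hypoxia over 14309 genes tested (quasi-likelihood test of edgeR, adjusted p under 0.05 after Benjamini-Hochberg), and all 10 differences were above 0. Across all genes tested, 6.03% were called higher and 5.29% lower. The median log2 difference of the 10 members was 0.79, against 0.00 for all genes. The replicate numbers were taken to pair the PC3 libraries, and with the number as a block all 10 members were called higher, where 14.9% of all genes were. Every hypoxic PC3 library lay above every normoxic one for 9 of the 10 members, as it did for 9.62% of genes. The split of all called genes depended on the scaling, with 53.3% of them higher in hypoxia under TMM, 39.4% under upper-quartile scaling and 24.5% under total counts, where 7 of the members were called beside 3.93% of all genes higher.

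Some PC3 calls made without the block were lost when a single library was left out, while the differences themselves moved little. The share of all genes called higher is given beside each count. Without both libraries of replicate 1, the count stayed at 8 (7.04% of genes). Without normoxia replicate 2 it fell to 4 (2.58% of genes), as VEGFA (adjusted p = 0.0605), VEGFB (0.0687), VEGFC (0.0840) and ADM (0.0525) were lost. Without normoxia replicate 3 it fell to 3 (2.52% of genes), as VEGFA (adjusted p = 0.0688), VEGFB (0.0733), VEGFC (0.0944), PDGFB (0.0526) and ADM (0.0557) were lost. Without normoxia replicate 4 it fell to 5 (3.79% of genes), as VEGFA (adjusted p = 0.0535), VEGFB (0.0609) and VEGFC (0.0591) were lost, and VEGFC was lost without hypoxia replicate 2 (0.0655). Where these calls were lost, the log2 difference was 0.60 to 0.66 for VEGFA, 0.44 to 0.45 for VEGFB, 0.31 to 0.34 for VEGFC, 0.80 for PDGFB and 1.28 to 1.33 for ADM, against 0.65, 0.45, 0.33, 0.86 and 1.39 with all libraries. These fits did not use the pairing of the PC3 libraries. APLN, ANGPTL4 and STC1 were called in each of them, and no member changed its direction.

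In HCT116, 8 members had enough counts to be tested among 14120 genes, and 6 of them were called, all higher in hypoxia. The share of all genes was 14.6% higher and 11.3% lower. VEGFC and STC1 were removed by the filter on low counts. With no filter STC1 was called as well (adjusted p = 0.0449, from counts of 0, 0 and 0 against 14, 2 and 1), which made 7 beside 11.6% of all genes higher, and VEGFC was not (adjusted p = 0.826). The median of the 8 members was 0.86 on the log2 scale, against 0.00 for all genes. Every hypoxic HCT116 library lay above every normoxic one for 6 of the 8, against 20.3% of genes. Of all called genes, 56.3% were higher in hypoxia under TMM and 29.0% under total counts, and the same 6 members were called under both, beside 9.11% of all genes higher under total counts.

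**Figure D1:**
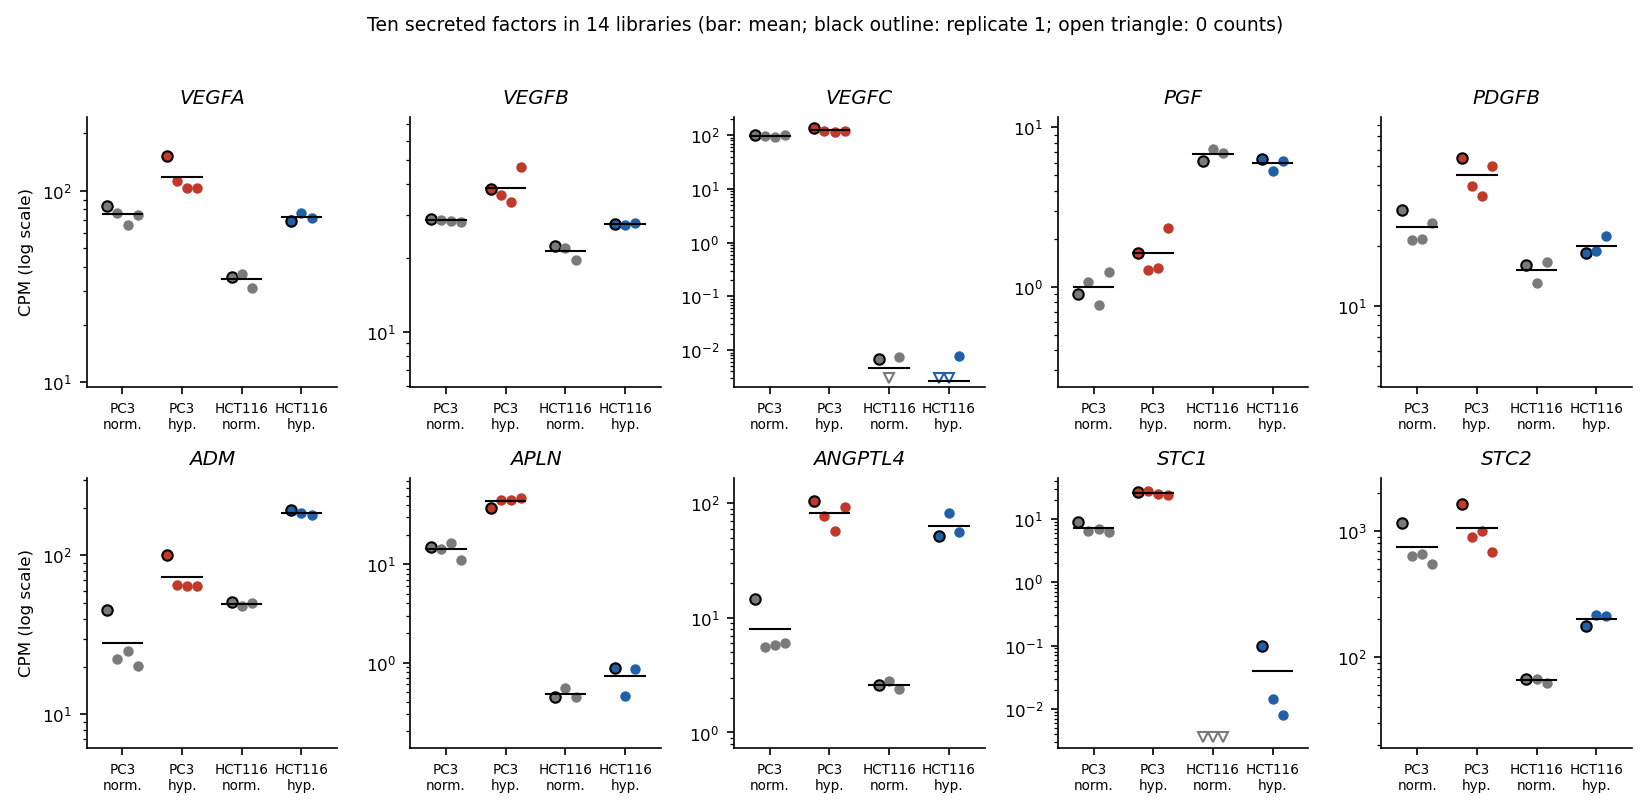
CPM of the 10 factors in each of the 14 libraries, on a log axis whose range differs between genes. Points are libraries, bars are group means, black outlines mark replicate 1 and open triangles mark libraries with 0 counts. VEGFC and STC1 are near 0 in HCT116, ANGPTL4 rises in every hypoxic library of both lines, and PC3 replicate 1 is high for ADM, ANGPTL4 and STC2.

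VEGFA, the main growth factor for new blood vessels, lies on chromosome 6 from 43737921 to 43754224 (GRCh37). In PC3 it was at 83.6, 76.5, 66.7 and 74.5 CPM in normoxia and at 152, 112, 103 and 103 CPM in hypoxia. The conditions did not overlap, and replicate 1 was the highest in both. The rise was 0.65 on the log2 scale (SE 0.14, adjusted p = 0.0180, edgeR) and 0.55 without replicate 1 (adjusted p = 0.00481). In HCT116 the values were 35.5, 36.7 and 31.1 CPM in normoxia and 69.2, 76.9 and 72.2 CPM in hypoxia. This rise, with no overlap, was 2.14-fold (log2 1.10, SE 0.08, adjusted p = 2.07e-06). PC3 libraries held more VEGFA than HCT116 libraries in normoxia (log2 1.13, SE 0.13, adjusted p = 6.42e-07) and in hypoxia (log2 0.69, SE 0.12, adjusted p = 9.74e-05). Normoxic PC3 (75.3 ± 6.94 CPM, SD, n = 4) and hypoxic HCT116 (72.8 ± 3.88 CPM, n = 3) lay in the same range.

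VEGFB binds FLT1 and is better known for effects on muscle and fat than on sprouting vessels. Its gene is on chromosome 11 from 64002056 to 64006736. PC3 values were 28.9, 28.6, 28.2 and 28.1 CPM in normoxia and 38.0, 36.1, 33.7 and 46.9 CPM in hypoxia. HCT116 values were 22.3, 21.9 and 19.6 CPM in normoxia and 27.6, 27.1 and 27.8 CPM in hypoxia. The rise was of a similar size in both lines, 0.45 in PC3 (SE 0.10, adjusted p = 0.0209) and 0.39 in HCT116 (SE 0.07, adjusted p = 0.00213), and the difference between these responses was -0.07 on the log2 scale with a 95% interval of -0.35 to 0.21. VEGFB was also higher in PC3, by 0.42 in normoxia and 0.49 in hypoxia (adjusted p = 7.64e-04 and 1.96e-04).

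VEGFC separated the lines almost completely. The gene, on chromosome 4 from 177604689 to 177714076, had 100.5, 98.3, 92.7 and 102 CPM in normoxic PC3 libraries and 137, 122, 113 and 120.4 CPM in hypoxic ones. In HCT116 it had 1, 0 and 1 counts in normoxia and 0, 0 and 1 in hypoxia, under the 3 counts that a count of 0 allows. The ratio of PC3 to HCT116 from the summed counts (46647 against 2) was 20889 in normoxia, with an exact 95% interval of 5782 to 172493 that covers counting error only. Within PC3 the rise in hypoxia was the smallest that was called, 0.33 on the log2 scale (SE 0.08, adjusted p = 0.0250). With total-count scaling, which moves the median of all PC3 genes to -0.10, it was 0.23 and not called (adjusted p = 0.0794).

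PGF, a ligand of FLT1 named for its expression in the placenta, ran the other way between lines. It lies on chromosome 14 from 75408537 to 75422329. PC3 libraries held 0.897, 1.08, 0.776 and 1.24 CPM in normoxia and 1.64, 1.28, 1.31 and 2.34 CPM in hypoxia. HCT116 libraries held 6.13, 7.27 and 6.92 CPM in normoxia and 6.38, 5.34 and 6.14 CPM in hypoxia. PGF was lower in PC3 in normoxia (log2 difference -2.76, SE 0.20, adjusted p = 4.44e-09) and the difference in hypoxia was -1.86 (SE 0.20, adjusted p = 3.59e-07). Its response in PC3 was 0.72 (SE 0.24) with an adjusted p of 0.0830, just short of the threshold, and 0.71 with an adjusted p of 0.0196 once replicates were paired. Without both replicate 1 libraries the paired difference was 0.65 and no longer called (adjusted p = 0.0850), while DESeq2 called it unpaired with all libraries (adjusted p = 0.0270). Leaving out single libraries gave an adjusted p of 0.0826 to 0.219 without pairing. In HCT116 the conditions overlapped and the difference was -0.17 (95% interval -0.40 to 0.06, adjusted p = 0.270).

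PDGFB, the B chain of platelet-derived growth factor, is on chromosome 22 from 39619364 to 39640987. PC3 values were 30.2, 21.2, 21.6 and 26.0 CPM in normoxia and 54.6, 39.4, 35.2 and 49.9 CPM in hypoxia. HCT116 values were 16.0, 13 and 16.5 CPM in normoxia and 18.4, 18.8 and 22.4 CPM in hypoxia. Neither line had any overlap between conditions. The rise was 0.86 in PC3 (SE 0.17, adjusted p = 0.0129) and 0.41 in HCT116 (SE 0.10, adjusted p = 0.0140). The HCT116 call was lost without normoxia replicate 2 (0.30, adjusted p = 0.0562) or hypoxia replicate 3 (0.32, adjusted p = 0.0638). PDGFB was higher in PC3 by 0.71 in normoxia and by 1.17 in hypoxia (adjusted p = 7.32e-04 and 6.35e-06).

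ADM, the vasodilator adrenomedullin, was the most abundant member per length in HCT116. Its gene spans chromosome 11 from 10326620 to 10328944. Normoxic HCT116 libraries held 50.9, 48.0 and 50.3 CPM, and hypoxic ones 192, 186 and 180.3 CPM. That rise was 3.79-fold, with no overlap (log2 1.92, SE 0.06, adjusted p = 1.04e-08). In PC3 it was at 45.6, 22.2, 25.0 and 20.2 CPM in normoxia and at 100.0, 65.0, 64.7 and 64.7 CPM in hypoxia. Replicate 1 was the high library in both conditions, at 2.03 times the mean of the other 3 in normoxia and 1.54 times in hypoxia. The rise in PC3 was 1.39 (SE 0.27, adjusted p = 0.0136), and 1.53 (SE 0.09, adjusted p = 1.94e-04) without replicate 1. ADM was lower in PC3 than in HCT116, with a log2 difference of -0.82 in normoxia (SE 0.22, adjusted p = 0.00352) and -1.34 in hypoxia (SE 0.22, adjusted p = 5.02e-05).

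APLN, which encodes apelin, is on chromosome X from 128779236 to 128788933. PC3 values were 15.1, 14.3, 16.4 and 11.2 CPM in normoxia and 37.8, 45.5, 45.3 and 47.4 CPM in hypoxia, a 3.09-fold rise (log2 1.63, SE 0.12, adjusted p = 1.34e-04). In HCT116 it stood at 0.449, 0.546 and 0.441 CPM in normoxia and at 0.888, 0.453 and 0.858 CPM in hypoxia. Hypoxia replicate 2 lay inside the normoxic range, and the difference of 0.63 had an adjusted p of 0.118. Without that library it was 0.88 with an adjusted p of 0.0286. The level was 29.7-fold higher in PC3 in normoxia and 60.0-fold higher in hypoxia (adjusted p = 1.05e-11 and 1.46e-12).

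ANGPTL4, a secreted inhibitor of lipoprotein lipase, had the largest response of the members tested in each line. It lies on chromosome 19 from 8428173 to 8439254. PC3 libraries went from 14.5, 5.60, 5.79 and 5.98 CPM in normoxia to 104, 76.9, 57.8 and 92.4 CPM in hypoxia. HCT116 libraries went from 2.59, 2.79 and 2.40 CPM to 52.2, 82.6 and 56.2 CPM. By log2 difference it ranked 3 of 14309 genes in PC3 and 2 of 14120 in HCT116. Normoxia replicate 1 of PC3 stood at 2.51 times the mean of the other 3, and leaving out both replicate 1 libraries moved the PC3 rise from 10.4-fold to 13.1-fold. In HCT116 the rise was 24.8-fold (log2 4.63, SE 0.17, adjusted p = 1.63e-08). The normoxic level was higher in PC3 (log2 1.62, SE 0.32, adjusted p = 2.76e-04, and 1.16 without replicate 1). In hypoxia the lines overlapped, with a difference of 0.38 (95% interval -0.24 to 1.00, adjusted p = 0.240).

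STC1 was, like VEGFC, a factor of PC3. Its gene is on chromosome 8 from 23699442 to 23712319. PC3 libraries held 8.94, 6.34, 6.99 and 6.20 CPM in normoxia and 26.2, 27.6, 24.4 and 23.8 CPM in hypoxia, a 3.59-fold rise with the smallest adjusted p of the members in PC3 (log2 1.84, SE 0.13, adjusted p = 1.30e-04). HCT116 had 0 counts in all 3 normoxic libraries and 14, 2 and 1 counts in the hypoxic ones. From 3363 counts against 0, with 3 counts over the group as the floor, STC1 was at least 1004-fold higher in normoxic PC3. In hypoxia the ratio, from 8486 against 17 counts, was 614 (exact 95% interval 383 to 1055, counting error only). Hypoxia replicate 1 of HCT116 held 14 of those 17 counts, and without it the ratio was 2263 (exact 95% interval 774 to 10975).

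STC2, which also binds and inhibits the protease PAPP-A, was the most abundant member in PC3 by far. It is on chromosome 5 from 172741726 to 172755450. PC3 values were 1158, 637, 659 and 551 CPM in normoxia and 1648, 895, 997 and 686 CPM in hypoxia. Replicate 1 was the highest of its group in both conditions, at 1.88 and 1.92 times the mean of the others, and normoxia replicate 1 lay above 3 of the 4 hypoxic libraries. The difference was 0.50 (95% interval -0.19 to 1.18) and was not called (adjusted p = 0.328). It was 0.80 without normoxia replicate 1 (adjusted p = 0.0889) and 0.19 without hypoxia replicate 1 (adjusted p = 0.656). With the replicates paired, every hypoxic library was 1.24 to 1.51 times its normoxic partner, and the difference of 0.48 (SE 0.06) was called (adjusted p = 0.00215). Without replicate 1, the conditions did not overlap, and the adjusted p was 0.0630 unpaired and 0.0188 paired. HCT116 went from 66.7, 66.7 and 62.3 CPM to 177, 217 and 212 CPM, a rise of 1.65 (SE 0.08, adjusted p = 1.11e-07). STC2 was 11.5-fold higher in PC3 in normoxia and 5.23-fold higher in hypoxia (adjusted p = 2.86e-08 and 1.31e-06).

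**Figure D2:**
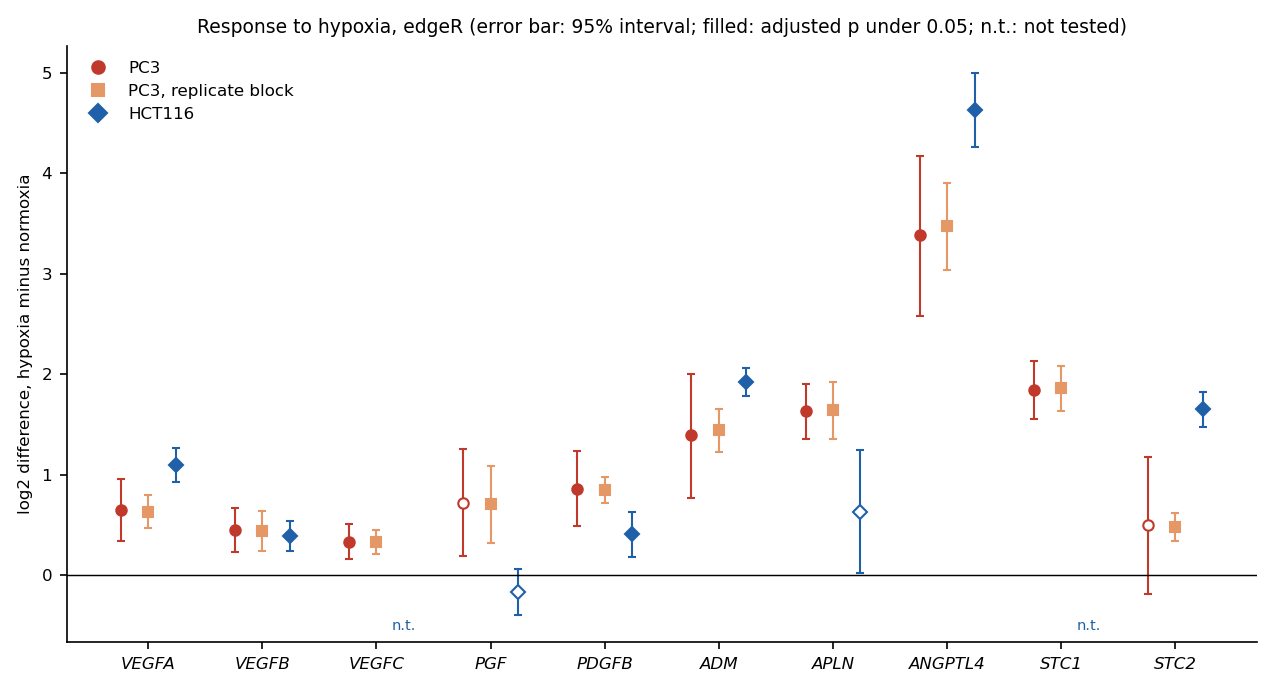
Log2 difference between hypoxia and normoxia for each factor, by edgeR in PC3 without and with the replicate number as a block and in HCT116. Error bars are 95% intervals, filled symbols have an adjusted p under 0.05, and n.t. marks the members not tested in HCT116. The intervals of ADM, ANGPTL4 and STC2 in PC3 narrow with the block, and ANGPTL4 is the highest in both lines at 3.38 and 4.63.

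**Figure D3:**
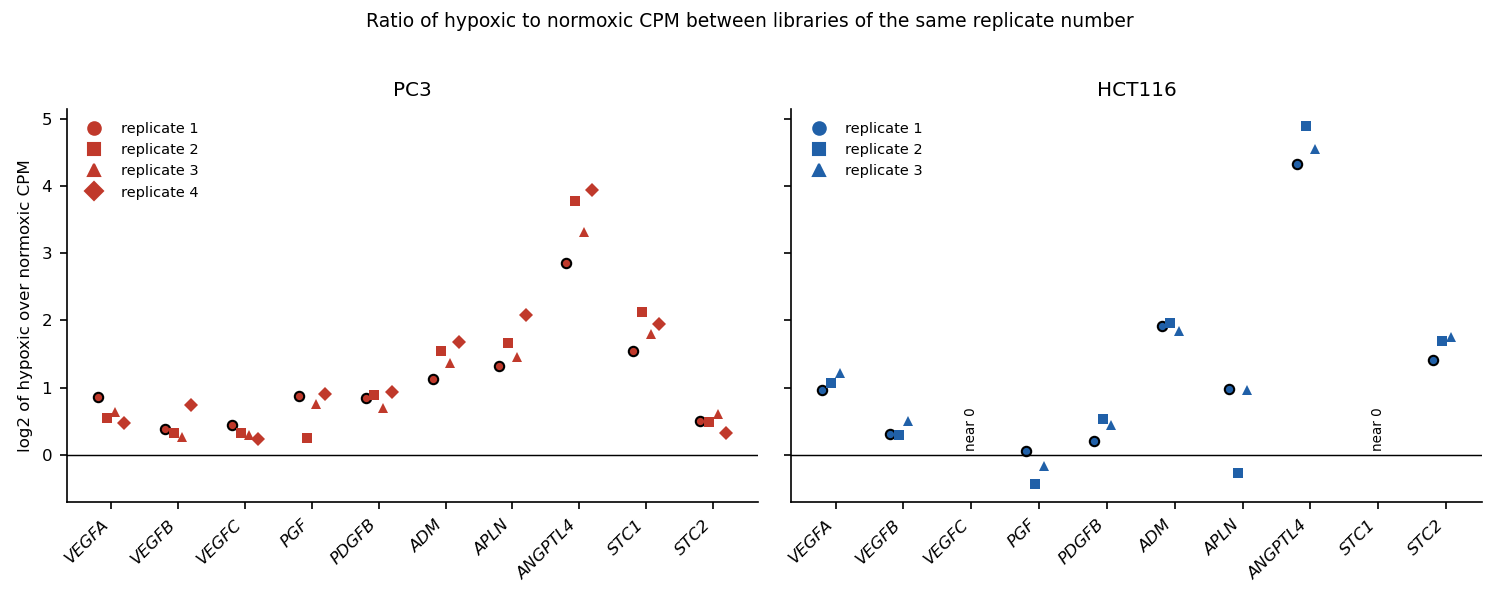
Log2 ratio of hypoxic to normoxic CPM between libraries of the same replicate number, by gene and line, with one symbol for each number. The numbers were taken to pair the PC3 libraries and not those of HCT116. In PC3 all 10 factors have 4 of 4 ratios above 0, while PGF in HCT116 has 1 of 3 above 0 and APLN 2 of 3.

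Whether the response differed between the lines was tested as the interaction of line and oxygen over all 14 libraries. By edgeR without a block, 0 of the 10 members were called, where 2.32% of 15493 genes were. The 10 include VEGFC and STC1, which had too few counts in HCT116 for a test of their response there. DESeq2 called 2, PGF and APLN, with 6.22% of genes. When the number was used as a block in PC3 alone, where it was taken to pair the libraries, 7 of the 10 were called, against 8.20% of genes. This fit was chosen after seeing the data, and a block in both lines also called 7, with 8.43% of genes. STC2 (log2 1.15, SE 0.11, adjusted p = 1.96e-05), ANGPTL4 (1.15, SE 0.26, adjusted p = 0.0150), ADM (0.47, SE 0.11, adjusted p = 0.0193) and VEGFA (0.45, SE 0.11, adjusted p = 0.0217) responded more in HCT116. PGF (-0.89, SE 0.19, adjusted p = 0.0124), APLN (-1.02, SE 0.28, adjusted p = 0.0390) and PDGFB (-0.46, SE 0.13, adjusted p = 0.0412) had the larger response in PC3. Without both replicate 1 libraries and with no block, 3 were called, VEGFA, APLN and STC2, with 3.28% of genes. Without hypoxia replicate 1 alone 2 were called, VEGFA and STC2, with 2.43% of genes. Of the 10 genes used to check the labels, 7 were called in this interaction without a block, each with the larger response in HCT116.

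Between the lines in normoxia, all 10 members were called among 15493 genes, 8 higher in PC3 and 2 higher in HCT116. So many genes differed between the lines, 42.4% higher in PC3 and 38.9% higher in HCT116, that such a count says little of these factors. In hypoxia 9 were called, 7 higher in PC3 and 2 higher in HCT116, beside 41.8% and 39.0% of all genes. The median log2 difference of the members was 1.38 in normoxia and 0.93 in hypoxia, also with VEGFC and STC1 set at their lower bounds, against 0.05 and 0.03 for all genes. Among the members the size varied: VEGFC, STC1, APLN and STC2 differed by 11.5-fold or more in normoxia, and VEGFB by 1.34-fold. A log2 difference of at least 1 in normoxia was called for 7 members and for 6941 of the 15493 genes.

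Levels of different genes were compared as CPM per kb of exon, over the union of the exons in the annotation. In PC3 the order in normoxia was led by STC2 (148 ± 54.4 CPM per kb, SD, n = 4), which made up 63.6% of the sum of the 10, then VEGFC (37.5 ± 1.53), VEGFB (14.4 ± 0.205) and ADM (12.1 ± 5.05), of which the last 2 overlapped. The means of STC2 and ADM were raised by replicate 1, at 229 and 19.6 CPM per kb. Without it STC2 was at 122 ± 11.3 (n = 3) and ADM at 9.66 ± 1.04, where VEGFB (14.4 ± 0.145) and ADM no longer overlapped. In hypoxia STC2 (209 ± 82.0) and VEGFC (47.1 ± 3.89) still led, and ANGPTL4 (33.5 ± 8.16) and ADM (31.7 ± 7.58), which overlapped, came next. Without replicate 1 STC2 was at 169.8 ± 31.3, ANGPTL4 at 30.6 ± 7.01 and ADM at 27.9 ± 0.0690, in the same order and with the last pair still overlapping. In normoxia the mean of ANGPTL4, 3.22 ± 1.77, had been below those of PDGFB, VEGFA and APLN, but its range of 2.26 to 5.87 overlapped all of theirs. That overlap came from replicate 1 (5.87), and the other libraries of ANGPTL4, at 2.34 ± 0.0765, lay below every library of those genes. PGF was the lowest in PC3 in both conditions, at 0.172 ± 0.0353 and 0.283 ± 0.0846.

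In HCT116 ADM led, at 21.4 ± 0.656 CPM per kb in normoxia (n = 3), ahead of STC2 (12.9 ± 0.499) and VEGFB (10.8 ± 0.750), and these 3 ranges did not overlap. PGF (1.17 ± 0.101) and ANGPTL4 (1.05 ± 0.0785) overlapped in normoxia. In hypoxia ADM reached 80.1 ± 2.46, or 46.9% of the sum of the 10, followed by STC2 (39.9 ± 4.25) and ANGPTL4 (25.7 ± 6.67), which had passed VEGFB. The place of VEGFA depends on the length used, since its exon union of 14431 bases is far longer than its canonical transcript of 3609. With the canonical length it was at 20.9 in place of 5.22 CPM per kb in normoxic PC3, where its mean passed those of ADM (18.9), which it overlapped, and VEGFB (15.8). ADM came before VEGFB there through replicate 1 and overlapped it, and without replicate 1 ADM was at 15.1 ± 1.62 and VEGFB at 15.7 ± 0.159, while VEGFA (20.1 ± 1.43) lay above both with no overlap. It passed VEGFB in hypoxia as well, in PC3 (32.6 against 21.4) and in HCT116 (20.2 against 15.2). The canonical length also put ADM (49.3) before ANGPTL4 (44.3) in hypoxic PC3, with overlap. In normoxic HCT116 it put PGF (3.89 ± 0.336) above ANGPTL4 (1.39 ± 0.104), which had overlapped by the exon union.

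The 4 members that belong to the VEGF family, VEGFA, VEGFB, VEGFC and PGF, made a different mixture in each line. By canonical length, VEGFC was 53.9% ± 0.917 of their summed level in normoxic PC3 (n = 4), with VEGFA at 25.8% ± 1.32, VEGFB at 19.6% ± 0.768 and PGF at 0.710% ± 0.133. Normoxic HCT116 (n = 3) had VEGFB at 46.7% ± 1.16, VEGFA at 37.8% ± 0.880 and PGF at 15.5% ± 1.65. In hypoxia VEGFA was the largest share in HCT116, at 51.9% ± 1.98 with VEGFB at 39.2% ± 1.05, while VEGFC remained the largest in PC3 at 49.9% ± 1.35. By the exon union, VEGFA was only 9.09% ± 0.569 in normoxic PC3, and VEGFB stayed the largest share in hypoxic HCT116 (69.7% ± 0.862).

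**Figure D4:**
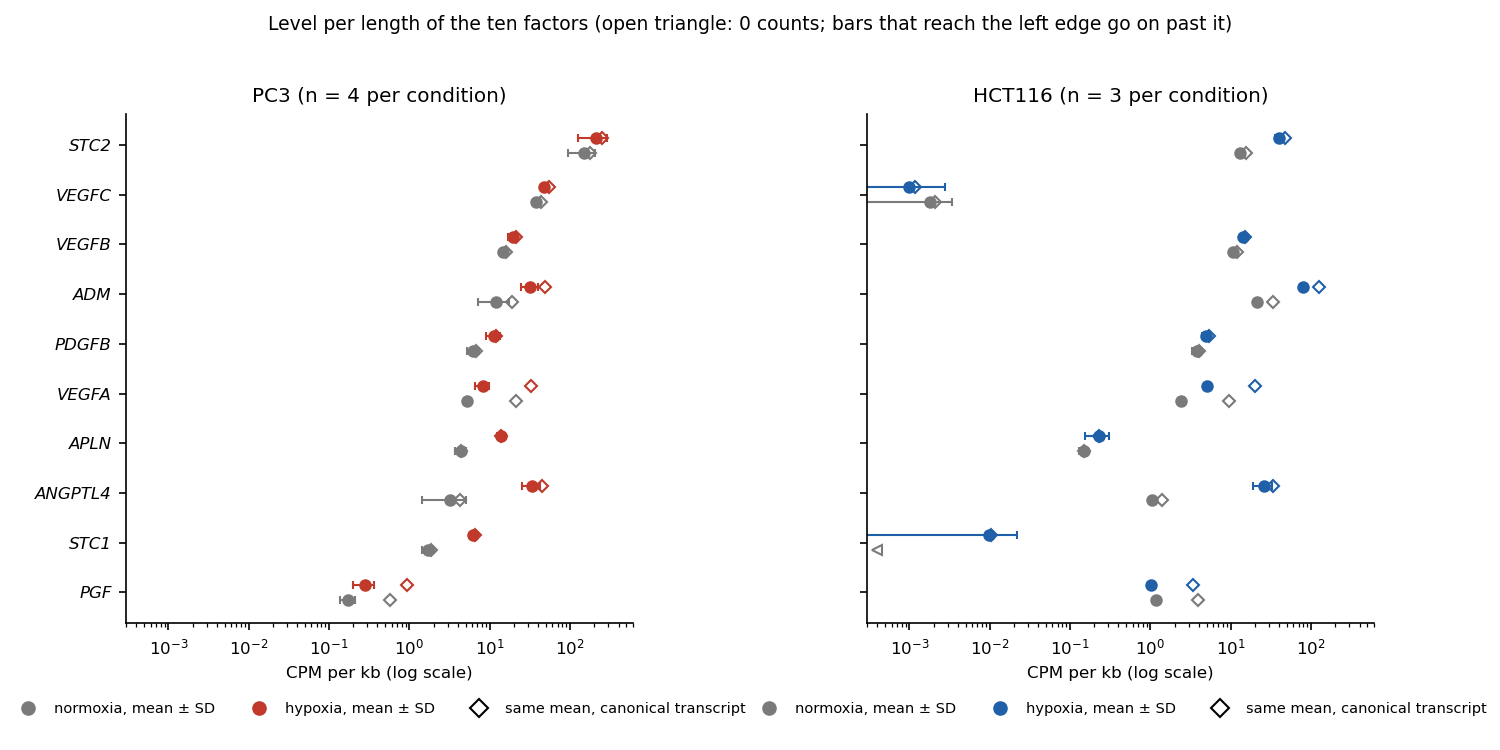
Mean CPM per kb of the 10 factors in each line and condition, on a log axis, with SD bars. Filled circles use the union of exons, open diamonds the canonical transcript, and the open triangle marks 0 counts. STC2 leads in PC3 (148 in normoxia), ADM leads in HCT116 (21.4), and the largest gaps between circles and diamonds are those of VEGFA and PGF.

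Most receptors of these ligands were scarce. KDR was at 1.42 ± 0.314 CPM in normoxic PC3 (n = 4) and at 0.0657 ± 0.0129 in normoxic HCT116 (n = 3), FLT1 at 0.703 ± 0.245 and 0.00996 ± 0.0172, and FLT4 had at most 8 counts in any library. The co-receptors NRP1 and NRP2 were not scarce in PC3. There NRP1, a co-receptor of VEGFA that also serves semaphorins, had 1181 ± 100.3 CPM in normoxia and 1035 ± 53.0 in hypoxia. In HCT116 it stood at 10.1 ± 1.95 and 17.9 ± 4.65 CPM and rose by 0.84 (SE 0.18, adjusted p = 0.00610). The interaction of NRP1 was called (log2 1.01, adjusted p = 0.0241), and its PC3 difference of -0.18 was called with the block only (adjusted p = 0.0352). NRP2, the co-receptor of VEGFC, went from 29.5 ± 1.82 to 37.2 ± 2.27 CPM in PC3 (log2 0.34, SE 0.07, adjusted p = 0.0131) and was at 0.501 ± 0.0267 in normoxic HCT116. In PC3, 1 of the 6 receptor genes tested was called higher and 0 lower, with a median of -0.26, and in HCT116 1 of 3 higher, with a median of 0.83. Counts for these lists of related genes stand against 6.03% of all genes called higher and 5.29% lower in PC3, and 14.6% and 11.3% in HCT116.

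PDGFA, which pairs with the B chain, rose in both lines, from 11.6 ± 0.940 to 21.4 ± 2.13 CPM in PC3 (log2 0.89, SE 0.10, adjusted p = 8.53e-04) and from 16.9 ± 0.394 to 28.7 ± 4.35 CPM in HCT116 (log2 0.79, SE 0.10, adjusted p = 2.20e-04). PDGFC rose by 0.26 in PC3 (adjusted p = 0.0416). These were the calls among the other ligands of both families, 2 of 3 tested in PC3 (median 0.26) and 1 of 3 in HCT116 (median 0.05). Of the partners of ADM and APLN, edgeR and DESeq2 both called 0 of 2 tested in PC3 and 0 of 3 in HCT116. Their medians were 0.16 and -0.26. CALCRL differed by -0.84 in HCT116 (SE 0.37, adjusted p = 0.116, edgeR). RAMP1, a partner of CALCRL, was at 34.9 ± 2.89 CPM in normoxic and 42.4 ± 4.78 in hypoxic PC3 (adjusted p = 0.102, and 0.0153 with the block). RAMP2 and RAMP3, which join CALCRL to form the receptors of adrenomedullin, had at most 7 and 0 counts in any library. CALCRL itself was at 0.779 ± 0.347 CPM in normoxic HCT116 and 0.0130 ± 0.00587 in normoxic PC3, and APLNR had at most 1 count in any library. Lipoprotein lipase (LPL), the enzyme that ANGPTL4 inhibits, had at most 2 counts, and of the angiopoietins, their relatives and receptors listed with it, 0 of 2 tested passed in either line by edgeR, by DESeq2 or at an unadjusted p under 0.05 (medians -0.18 in PC3 and 0.14 in HCT116).

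Other angiogenic secreted factors moved in both directions. In PC3, 4 of 12 tested were called higher and 1 lower (median 0.05), and in HCT116 3 of 11 higher and 2 lower (median 0.16), against 0.00 for all genes in each line. Of all genes, 6.03% were called higher and 5.29% lower in PC3, and 14.6% and 11.3% in HCT116. IGFBP3, which binds insulin-like growth factors, went from 440.1 ± 262 to 1155 ± 319 CPM in PC3 (log2 1.39, SE 0.37, adjusted p = 0.0398) and from 0.350 ± 0.103 to 2.84 ± 1.02 CPM in HCT116 (log2 3.04, SE 0.30, adjusted p = 5.05e-05). Angiogenin (ANG) rose by 1.23 in PC3 and 0.83 in HCT116 (adjusted p = 0.00609 and 9.22e-04). TGFB1 (0.69) and IGFBP1 (0.84) rose in PC3, and TYMP (0.25) rose in HCT116. FGF2, the basic fibroblast growth factor, fell in both lines, by 0.51 in PC3 (adjusted p = 0.00303) and by 0.37 in HCT116 (adjusted p = 0.00333), and EFNA1 fell by 0.28 in HCT116. With the block, FGF1 (0.72, adjusted p = 0.00241) and EDN1 (0.19, adjusted p = 0.0380) were called higher in PC3 as well, which made 6, where 14.9% of all genes were. IL8 was at 1421 ± 764 CPM in normoxic PC3 and 0.588 ± 0.232 in normoxic HCT116, with no called response in either line.

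Of the anti-angiogenic secreted factors, edgeR called 0 of 8 tested in PC3 (median 0.06). DESeq2 called 3 there, where it called 1392 of 14309 genes higher and 1209 lower. In HCT116 edgeR called 3 of 10 (median 0.17). THBS2 (1.07) and COL18A1 (0.34), the source of endostatin, rose in HCT116 and VASH2 fell by 0.51. THBS1, which encodes thrombospondin 1, stood at 2689 ± 558 CPM in normoxic and 1729 ± 486 in hypoxic PC3 (log2 -0.63, SE 0.22, adjusted p = 0.0953). With the block it was called lower (-0.65, SE 0.08, adjusted p = 0.00194), as was VASH2 (-0.65, adjusted p = 0.0164), while VASH1 (0.23) and TIMP2 (0.27) were called higher. Of 14309 genes, the fit with the block called 2125 higher and 1949 lower.

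**Figure D5:**
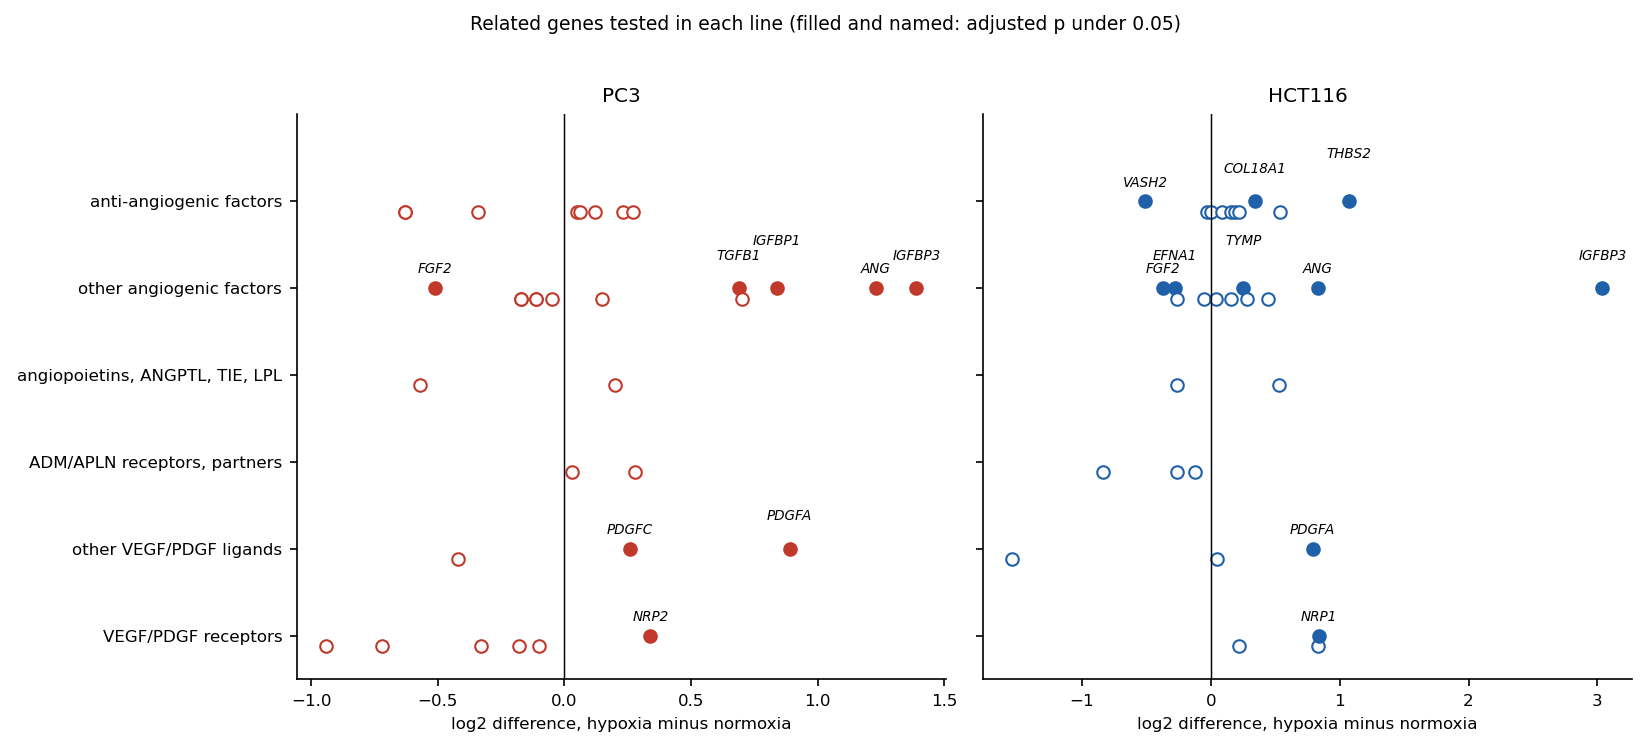
Log2 difference between hypoxia and normoxia of related genes that could be tested in PC3 and HCT116, grouped by list. Points are genes, and filled, named points have an adjusted p under 0.05 in edgeR without a block. PDGFA, ANG and IGFBP3 are filled above 0 and FGF2 below 0 in both lines.

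Markers of endothelial cells, the usual source of some of these genes, were checked in every library. Of the 8 markers listed, CDH5, ERG, CLDN5 and VWF had at most 3, 1, 12 and 54 counts in any library. PECAM1, ESAM, EGFL7 and ROBO4 went the other way, with highest counts of 271, 1053, 7647 and 1242. PECAM1 was at 1.89 ± 0.263 CPM in normoxic PC3. The 8 markers summed to 20.1 to 24.6 CPM in normoxic and 28.2 to 34.2 CPM in hypoxic PC3 libraries, and to 46.7 to 48.2 and 59.9 to 62.7 CPM in HCT116. EGFL7 was the most abundant in normoxic PC3 (7.93 CPM) and in HCT116 (41.3 CPM in normoxia), and ROBO4 in hypoxic PC3 (12.9 CPM). ROBO4 rose in PC3 (log2 0.79, adjusted p = 0.0155), 1 of 4 tested, and EGFL7 (0.38) and ESAM (0.33) rose in HCT116, 2 of 3 tested. The part of these sums in the rise of the members was not tested. Epithelial genes were high in both lines, and the keratin gene KRT8 stood at 1343 ± 125 CPM in normoxic PC3 and 1966 ± 26.7 in normoxic HCT116. By edgeR, KRT8 rose by 0.37 in HCT116 (adjusted p = 0.00158). The epithelial gene CDH1 rose by 0.34 in PC3 and 0.80 in HCT116 (adjusted p = 0.0206 and 5.59e-05). The prostate gene HOXB13 was at 81.0 ± 11.8 CPM in normoxic PC3 and 10.0 ± 0.400 in HCT116, but KLK3 and FOLH1 had at most 0 and 2 counts in any library. CDX2, of the colon, was at 17.6 ± 1.45 CPM in normoxic HCT116 and had 0 counts in PC3, but CDX1, VIL1, CDH17 and LGALS4 had at most 8 counts and GPA33 at most 29. In bulk libraries such as these, fewer cells that express a gene and less of its RNA per cell cannot be told apart.

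As a description, the 3 genes with the highest Pearson's r to each member over the 14 libraries were taken from the 12638 genes that averaged 1 CPM or more, on log2 CPM. These libraries share lines, conditions and replicate numbers, and r has no test. ADM was followed by EGLN3, the oxygen-sensing prolyl hydroxylase (r = 0.994), WDR45B (0.986) and KIAA1432 (0.978), each with r of at least 0.98 within PC3 and within HCT116. ANGPTL4 was followed by TMEM45A (0.985), TNNT1 (0.977) and C4orf3 (0.974), also with at least 0.98 within each line. For VEGFA they were STBD1 (0.983), BCL6 (0.975) and INSIG2 (0.974), for VEGFB TEX264, PAFAH1B2 and EPHB3, for PDGFB BCL2L1, TMEM184B and DAG1, and for STC2 DNAJB2, AHNAK2 and MGAT5B. For the members that separate the lines, r over all libraries was higher than within them. VEGFC and EXT1, for example, had 0.999 over 14 libraries and 0.80 within PC3. The other genes nearest to VEGFC were TNS3 and PCSK1N, those nearest to APLN were F8A1, MBOAT7 and ICMT, and those nearest to STC1 were C10orf32, TNFRSF19 and TPD52. PGF was nearest to ZNF580, LPCAT2 and DUSP5, and its r with DUSP5 was 0.984 over all libraries but -0.68 within HCT116.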

How the data were processed

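Polyadenylated RNA of PC3 and HCT116 cells was sequenced by the study in 14 libraries. Per the labels and the study's methods, the authors aligned reads with HISAT2 (2.05) to GRCh37 and counted reads per RefSeq gene with HTSeq (0.5.4p3), and the deposited values are raw counts, 1 table per library with 0 other columns of values. The RefSeq release and the strand setting of the counting are not given in the sources used here. Spike-in reads, by which the study scaled its libraries, were not used here, and neither were its chromatin data or its HIF-1β knockout libraries. A scaling that takes most genes as unchanged cannot show a change shared by all genes.

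Groups were taken from the labels. Each line was fitted apart with the quasi-likelihood test of edgeR (4.0.16, R 4.3.3), with filterByExpr, TMM scaling, 2-sided tests and Benjamini-Hochberg adjustment over all genes tested, at 0.05. One fit over 14 libraries gave the contrasts between lines and the interaction of line and oxygen. DESeq2 (1.42.0), other scalings, filters, a replicate block and fits without each library were alternatives. The scripts were tested on simulated counts. Deviations from the group means correlated between PC3 libraries of the same replicate number (r = 0.774, 0.408, 0.26 and 0.354 over 13519 genes). Each was the highest r of its library, and this was taken as pairing from the data. Other numbers reached r = 0.292 (normoxia 4 with hypoxia 2) and 0.192 (normoxia 2 with hypoxia 3), so the pairing is less clear outside replicate 1. The HCT116 values were 0.093, 0.228 and 0.001, against -0.169 to 0.081 between other numbers. Those libraries were not taken as paired, although number 2 lay above that range. Exact intervals, and the floor of 3 counts for a count of 0, cover counting error only. Replicates of a group differed by more than sampling noise (a chi-square of at least 12.055 per gene), so each counted once. Exon lengths came from GENCODE on GRCh37, and promoters from RefSeq on GRCh38.p14.

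The 10 members were named in every comparison. Of the related lists, genes past the threshold in a line were named, and others only for their level or as receptors of a member, chosen after their values were seen. A few genes of these lists are not reported here and were left out of the lists' counts and medians. For each member the 3 genes with the highest r were named. Members and lists were chosen with earlier results of these data known.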

Additional observations from a re-analysis of the deposited data

Results flagged for a closer look

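ADM stood at 100.0 CPM in hypoxia replicate 1 of PC3, while the other 3 libraries of that group lay between 64.7 and 65.0 CPM, so that the gap to the nearest library was 0.991 of the whole range. ANGPTL4 stood at 14.5 CPM in normoxia replicate 1 of PC3, against 5.60 to 5.98 CPM in the other 3, a gap of 0.958 of the range. These were 2 of the 20 groups of 4 libraries examined, where chance gives about 1. Both libraries belong to replicate 1, which also stood apart over all genes.

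The response to hypoxia differed between HCT116 and PC3 for 7 members by edgeR when PC3 libraries were paired by their number. That fit was chosen after seeing the data and called 8.20% of 15493 genes. The difference, HCT116 minus PC3, was 1.15 for STC2 (adjusted p = 1.96e-05), 1.15 for ANGPTL4 (adjusted p = 0.0150), 0.47 for ADM (adjusted p = 0.0193) and 0.45 for VEGFA (adjusted p = 0.0217) on the log2 scale. It was -0.89 for PGF (adjusted p = 0.0124), -1.02 for APLN (adjusted p = 0.0390) and -0.46 for PDGFB (adjusted p = 0.0412). Without the block, edgeR called 0 of these beside 2.32% of all genes, and the adjusted p ranged from 0.0726 for APLN to 0.470 for ADM.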

How the results depend on the processing

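The 10 members gave 1004 values under alternatives to the 5 comparisons, of which 948 kept their direction and side of the threshold, 28 lost the call, 27 gained it and 1 turned. That one was VEGFB in the interaction, at 0.04 without hypoxia replicate 4 of PC3, where leaving out single libraries gave -0.13 to 0.04. PGF and DUSP5 had r = -0.68 within HCT116. Requiring a log2 difference of at least 1 left 4 members in PC3, all higher in hypoxia, with 204 of 14309 genes, 138 of them higher. It left 4 members in HCT116, all higher, with 291 of 14120 genes, 219 of them higher. Between the lines it left 7 members in normoxia and 7 in hypoxia, with 6941 and 7044 of 15493 genes. In the interaction it left 0 members and 107 genes. Leaving out single libraries gave 3 to 8 members and 553 to 2085 genes in PC3 (1620 with all libraries), and 0 to 2 members and 177 to 717 genes in the interaction (359 with all). With the replicate number as a block, 4074 genes were called in PC3, and the interaction had 7 members and 1306 genes, or 7 and 1270 with the block in PC3 alone. In HCT116 the block changed no member's call (PDGFB 0.41, adjusted p = 0.00468), nor did it between the lines. The block between the lines gave a number the same effect in PC3 and HCT116, so it does not check the pairing. DESeq2 called 2601 genes in PC3, and 2 members and 963 genes in the interaction. Leaving out both libraries of PC3 replicate 1, an alternative chosen after seeing the data, gave 3 members and 508 genes in the interaction. With one fit over both lines, 2465 genes were called in PC3 and 1733 in HCT116, and PDGFB was not called in HCT116 (0.39, adjusted p = 0.151). Of genes called in the interaction, 56.5% were above 0 under TMM and 70.7% under upper-quartile scaling. The causes of these changes were not tested. Total-count scaling moved the median of all genes to -0.10 in PC3, -0.09 in HCT116 and 0.13 between the lines in normoxia. VEGFC and STC1 had 3 and 17 counts in the 6 HCT116 libraries, so their levels and ratios there rest on few counts.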
